A study of Mus musculus with 6 samples.

Results

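The genes described here encode the matrix metalloproteinases (Mmp genes), their tissue inhibitors (Timp genes), the membrane-anchored ADAM proteins (Adam genes) and the secreted ADAMTS proteases (Adamts genes) in mouse liver. Members were all genes in the deposited table whose symbol is Mmp, Timp, Adam or Adamts followed directly by digits and at most 1 letter, with 1 Mmp gene kept out of the set. This gave 52 genes of the 21512 in the table: 17 Mmp, 4 Timp, 16 Adam and 15 Adamts genes. RNA of whole liver was sequenced from 6 C57BL/6J mice. A high-fat diet and the solvent carbon tetrachloride (CCl4), which injures liver cells, were given to all 6 mice over 12 weeks. This regimen models fibrosis in metabolic dysfunction-associated steatohepatitis (MASH). Every 3 days, 3 of the mice received the isotype control and the other 3 the antibody to PD-1, an inhibitory receptor of activated T cells. Age and sex are not given in the sources used here, and healthy or untreated livers were not analysed here, so every comparison is between livers that share the diet and the toxin. The titles name PD-1 treatment for all 3 treated mice, while the treatment field carries a different number after "PD" for replicates 2 and 3. The groups follow the titles.

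Matrix metalloproteinases are zinc enzymes made as inactive precursors, and they cut collagen, gelatin and other matrix proteins once the prodomain is removed. TIMPs bind the active zinc site and block it, and the balance between both sides is known to shape how scar is laid down and resolved in the liver. ADAM proteins release the outer part of membrane proteins such as cytokine receptors and growth factors. ADAMTS proteases act in the matrix on procollagens, proteoglycans and von Willebrand factor. Hepatic stellate cells, the scar-forming cells of the liver, macrophages and neutrophils are known sources of several of these enzymes.

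In treated livers, no member passed the test in either direction. Of the 52 genes, 36 reached the filter of 1 normalized count (the deposited unit, reads relative to a library total that was scaled between samples) in at least 3 libraries and were tested, and 0 of them passed an adjusted p of 0.05 (limma with Benjamini-Hochberg adjustment over all 13990 tested genes, smallest adjusted p among the members 0.381). Across all tested genes 0.00715% passed, which is 1 gene. On the recovered reads, edgeR (0.00715% of all tested genes) and DESeq2 (1.87%) also called 0 members, DESeq2 giving no adjusted p for 6 of them. At an unadjusted p under 0.05, 2 members, Adam8 and Adamts6, were higher and 0 lower, which is 5.56% of the members against 11.3% of all tested genes (5.04% higher and 6.24% lower). edgeR and DESeq2 added Adam23, giving 3 members higher (8.33%) against 5.45% and 6.25% of all tested genes higher. With the replicate number as a block, 4 members were under an unadjusted p of 0.05 (Adam8, Adamts6 and Adam23 higher, Adamts4 lower), against 15.1% of all tested genes (7.75% higher and 7.4% lower), and 0 passed the adjusted threshold, which 0.286% of all tested genes did. Leaving out anti-PD-1 replicate 1 gave 3 members under an unadjusted p of 0.05, none of them Adam8 or Adamts6: Adam23 and Adamts1 were higher (5.56%, against 8.01%) and Adamts9 lower (2.78%, against 7.06%), and of all tested genes 15.1% were under that p. The 3 anti-PD-1 values lay wholly outside the control range for 1 member, Adamts6, or 2.78% of the members, against 17.1% of all tested genes (7.13% higher). The members' median log2 fold change was 0.11, with 23 of 36 positive, and that of all tested genes was 0.00, with 50.5% positive. Without anti-PD-1 replicate 1 the members' median was -0.04.

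**Figure D1:**
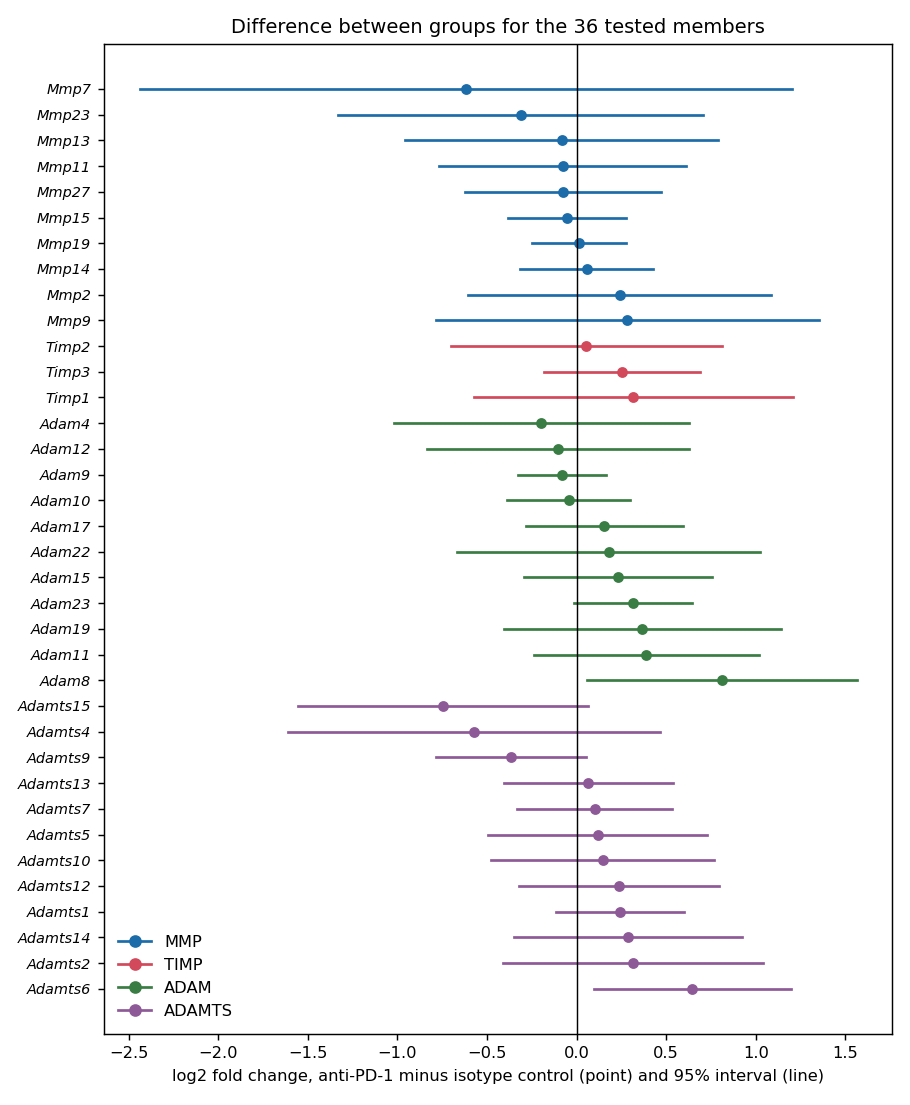
Log2 fold change (anti-PD-1 minus isotype control, on the log2 scale of normalized counts plus 0.5) of each of the 36 tested members, with its 95% interval from limma, coloured by family. The intervals of Adam8 and Adamts6 lie above 0 before adjustment for the number of genes, and the other 34 include 0.

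Recovered depth was 15528364 to 20779319 reads per library. The limit that a count of 0 allows, 3 reads, corresponded to 0.144 to 0.2 normalized counts, and this limit covers counting error only. Hepatocyte markers dominated all 6 libraries, as the label liver implies: Alb, the albumin gene, was between 46646 and 69086. Anti-PD-1 replicate 1 was the highest of the 6 libraries in several immune cell marker sums. Its summed level of 8 monocyte and infiltrating macrophage markers was 880, against 142 to 271 in the controls and 155 and 245 in the other anti-PD-1 libraries. Most of that sum was Lyz2, at 768, against 115 to 231 in the controls and 127 and 206. All 7 tested markers of that list had their highest treated value in anti-PD-1 replicate 1. In that library the sum of 9 T cell markers was 50.4, against 3.37 to 4.53 in the controls and 7.59 and 10.7. The T cell sums of all 3 treated livers were above those of all controls. The 2 T cell markers that were tested were Cd3e and Cd8a. Cd3e was at 0.43, 0.49 and 0.35 in control livers and 7.35, 1.13 and 1.09 in treated livers. Cd8a was at 0.70, 0.49 and 0.35 and at 11.7, 2.13 and 2.07. Both reached the filter through the treated livers alone, so their lack of overlap was fixed by the filter. They passed with DESeq2 (adjusted p = 0.0213 and 0.000885) but not with limma (adjusted p = 0.391 and 0.275), and this choice by the filter limits both tests.

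Promoter sequence was available for 32 of the 52 members, at 36 annotated starts (RefSeq, GRCm38.p6, an older build than the GRCm39 named by the submitters). For 26 of the 36 starts, the first 30 bases after the start were found in a transcript of the gene. Mmp3, Mmp7 and Mmp13 lie on chromosome 9 and are shown because they shared a pair of motifs that few promoters hold. Mmp3 encodes stromelysin-1, which cuts many matrix proteins, Mmp7 encodes matrilysin, and Mmp13 encodes the main interstitial collagenase of rodents. The lines give the 100 bases before the start, 5′ to 3′, with a TGANTCA match (the binding motif of AP-1, a stress-responsive transcription factor, here with any base in the middle) and a TATAAA match (the TATA box) in capitals.
Mmp3 (chr9:7445722-7445821, + strand): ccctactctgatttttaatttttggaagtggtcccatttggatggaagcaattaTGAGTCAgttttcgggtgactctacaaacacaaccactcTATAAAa
Mmp7 (chr9:7691990-7692089, + strand): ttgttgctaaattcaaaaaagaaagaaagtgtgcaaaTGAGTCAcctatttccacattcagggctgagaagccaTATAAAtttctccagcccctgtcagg
Mmp13 (chr9:7272414-7272513, + strand): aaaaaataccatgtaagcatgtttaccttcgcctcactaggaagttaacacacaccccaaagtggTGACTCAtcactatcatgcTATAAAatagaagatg

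Both strands of the 250 bases before each start were searched, and the motifs did not overlap each other in these 3 promoters. TGANTCA began 46, 63 and 35 bases before the start shown of Mmp3, Mmp7 and Mmp13. Mmp7 has another annotated start, and the 250 bases before it held none of the motifs searched. Adam19 was the only other member with a match, 131 bases before 1 of its starts. The TATAAA shown began 7, 26 and 16 bases before the start shown of Mmp3, Mmp7 and Mmp13, and whether it acts as a TATA box was not tested. Over the same window, 4 of 36 member starts (11.11%) held TGANTCA against 6.75% of 32851 starts in all, and 3 of 36 (8.33%) held both motifs against 1.21%. The interferon-related motifs were rare: TTCNNNGAA, the STAT motif, was found before Adam21 and Mmp23 (5.56% of member starts against 7.02% in all), and the interferon-stimulated response element before Mmp13 (2.78% against 2.98%). A match is a string of letters, and binding was not measured. These 3 MMP genes were low and uneven between livers. Mmp3 was at 0, 0.49 and 0 in control livers and 0.34, 0 and 0.05 in treated livers, below the filter. Mmp13 was at 1.35, 1.41 and 0.40 in control livers and 0.86, 1.33 and 0.57 in treated livers, so the groups overlapped fully (log2 fold change -0.08 ± 0.38 SE, limma adjusted p = 0.954).

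Mmp7 had the widest spread of all tested members. It was at 0.43, 1.52 and 4.68 in control replicates 1 to 3 (8, 28 and 93 reads) and at 3.55, 0.27 and 0.36 in anti-PD-1 replicates 1 to 3 (74, 4 and 7 reads). Control replicate 3 and anti-PD-1 replicate 1 were high, the other 4 livers at or below 1.52, and the ratio of the highest to the lowest library was 17.6. The 95% interval of its log2 fold change ran from -2.44 to 1.20, which leaves a wide range of changes in both directions possible. Cholangiocyte markers, those of bile duct cells, were highest in the same pair of libraries: the sum of 7 markers was 94.4, 119.6 and 238 in control livers and 136, 78.6 and 94.7 in treated livers. Most of that sum was Spp1, which is also a marker of lipid-associated macrophages, at 218 in control replicate 3 and 119.98 in anti-PD-1 replicate 1. Epcam was highest in control replicate 3 too, at 6.84, but Krt19 and Krt7 were highest in anti-PD-1 replicate 3, at 6.78 and 4.60, and Sox9 in control replicate 1, at 11.1. The part of these cells in the Mmp7 values was not tested. In whole liver, fewer cells of a type and less RNA per cell cannot be told apart.

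Scaled to gene length, 10 members stood above the rest. Levels per kilobase of merged exons were highest for Adam9, a broadly expressed sheddase (24.6 in control livers, the 3 livers between 22.5 and 26.1), and Mmp19, an MMP of many resting tissues (23.1, between 21.1 and 26.4), whose ranges overlapped. Adam10, the main sheddase of Notch receptors, followed at 13.9, with its 3 livers between 13.0 and 15.7 and clear of both neighbours. Then came Timp2 (8.01), the membrane-type Mmp15 (7.30), Timp3 (7.07), the gelatinase Mmp2 (7.07), Adamts1 (6.07), the membrane-type Mmp14 (6.07) and Adam17 (5.23), of which each overlapped its neighbours in the order. The next member, Mmp7, was at 2.07. Opposite-strand genes overlapped 28.3% of the exon bases of Mmp19 and 21.3% of those of Timp3, and whether strand was used in counting is not given in the sources used here, so their levels are uncertain to that extent.

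**Figure D2:**
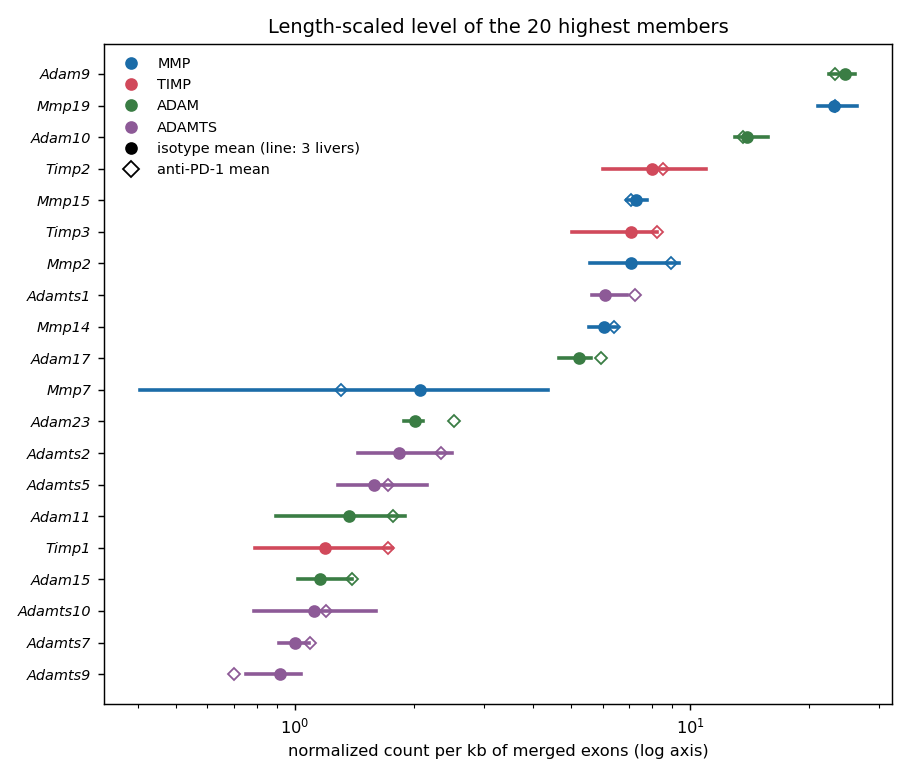
Normalized count per kilobase of merged exons (log axis, exon lengths from GENCODE vM21) for the 20 members with the highest control level. Filled circles are isotype control means with a line over the 3 livers, and open diamonds are anti-PD-1 means. The top 10 lie at or above 5.23, and the next gene, Mmp7, lies at 2.07.

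Among the gelatinases, which cut denatured collagen and the collagen of basement membranes, Mmp2 varied more within groups than between them. Mmp2 was at 21.2, 31.6 and 18.8 in control livers and 47.1, 16.1 and 27.4 in treated livers. The highest and the lowest of the 6 livers were both treated, and the log2 fold change of 0.24 ± 0.36 (SE, 95% interval -0.60 to 1.09) did not pass (limma adjusted p = 0.836). Mmp9, a gelatinase of neutrophils and monocytes, was at 0.97, 1.14 and 0.60 in control livers and 2.45, 0.33 and 1.45 in treated livers, again with the extremes in the treated group (limma adjusted p = 0.849).

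The collagenase of neutrophil granules, Mmp8, fell under the filter. It was at 0.70, 0.27 and 0.45 in control livers (13, 5 and 9 reads) and at 2.74, 0.27 and 0.72 in treated livers (57, 4 and 14 reads), so that anti-PD-1 replicate 1 alone was high. In that library 9 neutrophil markers, of which Mpo and Elane were at 0 in at least 1 library, summed to 44.9, against 5.5 to 8.80 in control livers and 5.33 and 9.42 in the other treated livers. The part of these markers in the Mmp8 and Mmp9 values was not tested. Of the membrane-type MMPs, Mmp14, which activates the Mmp2 precursor, was at 38.8, 36.6 and 33.1 in control livers and 48.0, 33.4 and 33.1 in treated livers, with a log2 fold change of 0.06 ± 0.16 (SE). The liver's other well-expressed membrane-type gene, Mmp15, was at 39.4 ± 2.29 (SD, n = 3) and 38.3 ± 6.58 (n = 3). Mmp19 was the most even MMP, at 93.2, 77.1 and 74.4 in control livers and 83.8, 77.6 and 84.4 in treated livers, and its 95% interval for the log2 fold change ran from -0.25 to 0.27. Of the 10 tested Mmp genes, 4 had positive and 6 negative log2 fold changes (median -0.07, range -0.62 to 0.28).

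The TIMPs, which block these enzymes, showed no difference that passed the test. Timp1, the inhibitor most closely tied to liver scarring, was at 1.56, 0.70 and 0.90 in control livers (29, 13 and 18 reads) and 2.55, 0.73 and 1.29 in treated livers (53, 11 and 25 reads). The treated range enclosed most of the control range, and the log2 fold change was 0.32 ± 0.38 (SE, limma adjusted p = 0.787). Timp2, which also takes part in Mmp2 activation, was at 27.6, 42.6 and 23.4 in control livers and 45.0, 19.3 and 35.4 in treated livers. Here too the highest and the lowest liver were both treated (log2 fold change 0.05 ± 0.33, limma adjusted p = 0.967). Timp3, the matrix-bound inhibitor that also blocks ADAM17, was at 41.0, 64.6 and 67.2 in control livers and 68.6, 61.6 and 71.3 in treated livers. Control replicate 1 was the low library, and the log2 fold change of 0.25 ± 0.19 (limma adjusted p = 0.646) was 0.03 without it. Timp4 had 5 reads or fewer in each library and was not tested.

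**Figure D3:**
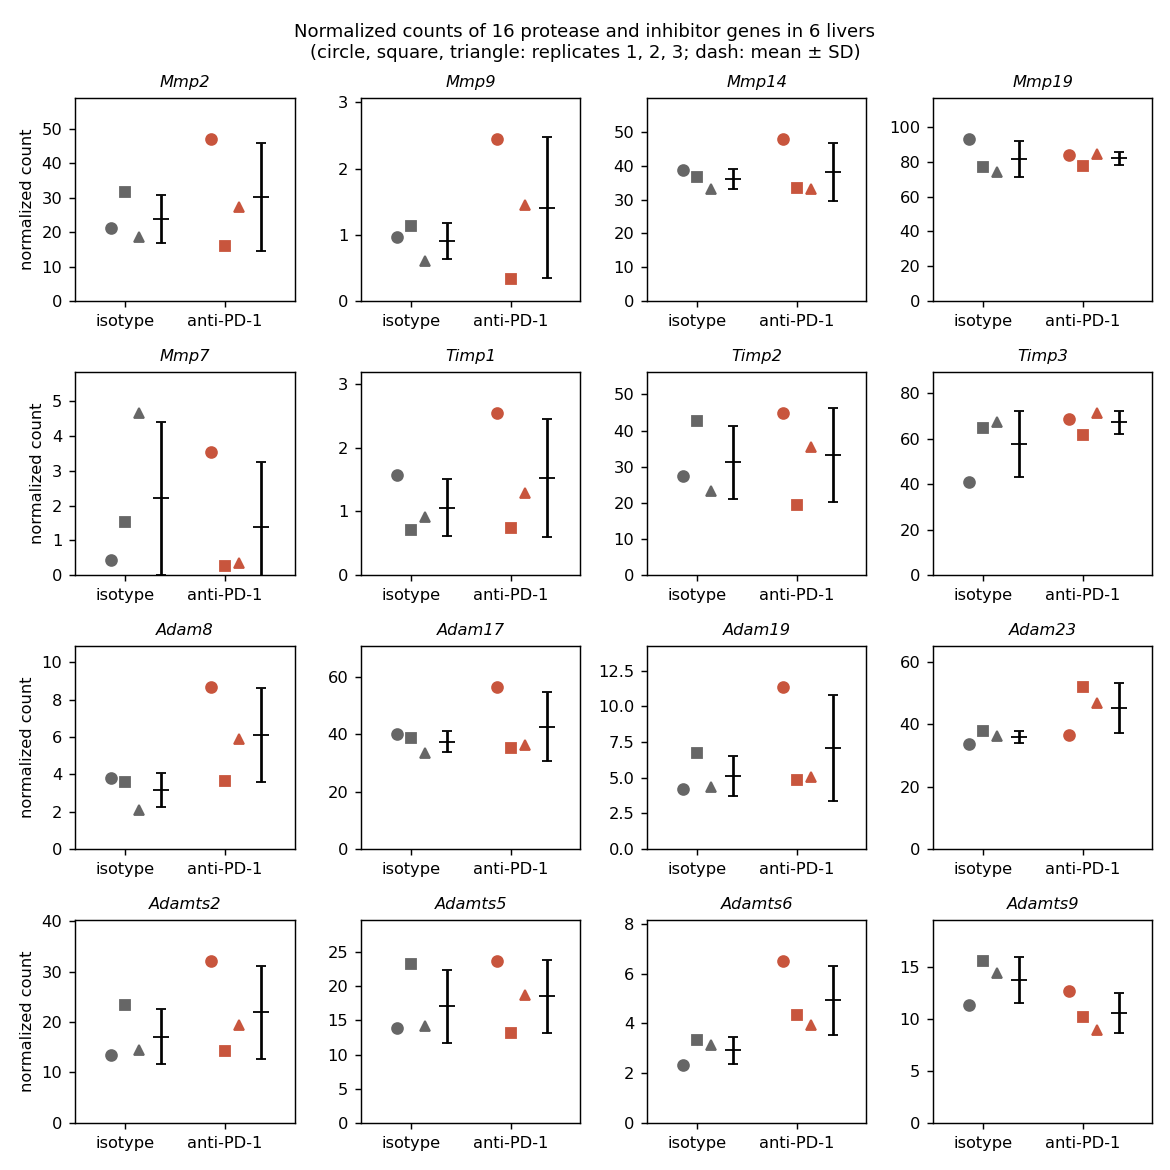
Normalized counts of 16 members in each liver (grey, isotype control; red, anti-PD-1; circle, square and triangle for replicates 1, 2 and 3), with the mean ± SD of 3 livers beside each group, cut off at 0. For Mmp2, Mmp9, Mmp14, Timp1, Timp2, Adam8, Adam17, Adam19, Adamts2, Adamts5 and Adamts6 the circle of the treated group, anti-PD-1 replicate 1, is the highest of the 6 points.

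Adam8, a sheddase of macrophages and neutrophils, had the largest log2 fold change of the tested members, 0.81 ± 0.33 (SE, 95% interval 0.06 to 1.56). It was at 3.78, 3.57 and 2.11 in control livers (70, 66 and 42 reads) and 8.69, 3.66 and 5.90 in treated livers (181, 55 and 114 reads). Anti-PD-1 replicates 1 and 3 were above all controls, while replicate 2 lay between control replicates 1 and 2. The unadjusted p was 0.0384 and the limma adjusted p 0.415. Leaving out anti-PD-1 replicate 1 gave a log2 fold change of 0.53, an unadjusted p of 0.121 and a limma adjusted p of 0.46. Beside it, the monocyte and infiltrating macrophage marker sum was 271, 161 and 142 in control livers and 880, 155 and 245 in treated livers. This sum, most of it Lyz2, was highest in the same library, and its part in the Adam8 values was not tested.

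The sheddases of wide expression, Adam9, Adam10 and Adam17, showed no difference between groups that passed the test. Adam10 was at 77.1, 64.0 and 63.6 in control livers and 80.4, 57.3 and 62.3 in treated livers, with a log2 fold change of -0.04 ± 0.15 (SE, 95% interval -0.39 to 0.30). Adam17, which releases TNF and both TNF receptors, was at 40.2, 38.8 and 33.3 in control livers and 56.5, 35.0 and 36.3 in treated livers. Anti-PD-1 replicate 1 was alone above the control range, and the log2 fold change of 0.15 ± 0.19 (limma adjusted p = 0.788) was -0.06 without it. Adam9, at 101 ± 7.86 in control livers and 95.7 ± 8.12 in treated livers (SD, n = 3 each), had the narrowest range of all tested members, with a ratio of the highest to the lowest library of 1.18. Adam12, a sheddase of activated mesenchymal cells, was at 2.86, 4.65 and 2.56 in control livers and 4.76, 2.33 and 2.38 in treated livers, and Adam19 was at 4.21, 6.71 and 4.37 and at 11.4, 4.86 and 5.07. In both genes control replicate 2 and anti-PD-1 replicate 1 were the high libraries of their groups.

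The ADAMs that lack a complete zinc site and act in adhesion, Adam11, Adam22 and Adam23, all had positive log2 fold changes (0.39, 0.18 and 0.31) and none passed the test. Adam23, a ligand of integrins, was at 33.8, 37.8 and 36.1 in control livers and 36.6, 52.1 and 46.9 in treated livers. Anti-PD-1 replicates 2 and 3 were above all controls and replicate 1 was within their range, the reverse of Adam8 (unadjusted p = 0.0589, limma adjusted p = 0.461). Its unadjusted p fell under 0.05 with edgeR, with DESeq2 and without anti-PD-1 replicate 1, and its adjusted p was 0.426 with edgeR and 0.392 with DESeq2. Adam4 completed the 11 tested Adam genes at 1.82 ± 0.77 in control livers and 1.56 ± 0.84 in treated livers (SD, n = 3 each).

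Adamts6, one of the fibrillin-associated members of the family, was the single tested member whose groups did not overlap. It was at 2.32, 3.35 and 3.12 in control livers (43, 62 and 62 reads) and 6.53, 4.33 and 3.93 in treated livers (136, 65 and 76 reads). The log2 fold change was 0.65 ± 0.24 (SE, 95% interval 0.10 to 1.20), with an unadjusted p of 0.0269 and 0.381 after adjustment (limma). Leaving out anti-PD-1 replicate 1 gave 0.44, an unadjusted p of 0.0815 and a limma adjusted p of 0.398. A second member of the family, Adamts3, had fewer than 1 normalized count in most libraries and was not tested, but its values did not overlap either: it had 11, 7 and 8 reads in control livers and 28, 12 and 15 in treated livers. Adamts3 was singled out after its values were seen.

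The procollagen N-proteinases trim the ends of new fibrillar collagen. Adamts2, the main enzyme for type I collagen, was at 13.4, 23.3 and 14.4 in control livers and 32.2, 14.2 and 19.4 in treated livers, so that control replicate 2 exceeded 2 of the 3 treated livers (log2 fold change 0.31 ± 0.31, limma adjusted p = 0.738). Leaving out anti-PD-1 replicate 1 gave a log2 fold change of 0.0019. Adamts14, with the same activity, was at 1.88 ± 0.49 in control livers and 2.42 ± 0.69 in treated livers (SD, n = 3 each). Among the hyalectanases, which cut versican and aggrecan, 2 of 5 had positive and 3 negative log2 fold changes. Adamts1 was at 30.2, 29.9 and 36.6 in control livers and 31.7, 38.0 and 45.6 in treated livers (log2 fold change 0.24 ± 0.15, limma adjusted p = 0.59). Adamts9 was at 11.3, 15.6 and 14.4 in control livers and 12.7, 10.1 and 8.90 in treated livers, where replicates 2 and 3 lay below all controls (log2 fold change -0.37 ± 0.18, limma adjusted p = 0.493). Adamts15 had the most negative log2 fold change of the tested members, -0.75 ± 0.35, with 2.54, 2.81 and 1.16 in control livers and 1.34, 0.60 and 1.24 in treated livers (limma adjusted p = 0.472). Control replicate 3 lay below 2 of the treated livers. Adamts13, which cuts von Willebrand factor and is made by stellate cells in the liver, was at 4.10, 4.22 and 3.42 in control livers and 3.36, 5.19 and 3.93 in treated livers (log2 fold change 0.07 ± 0.20).

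In each group, 1 liver held the highest value of most tested members. Control replicate 2 held the highest control value of 21 of the 36 tested members (58.3%), against 29.2% of all tested genes, and anti-PD-1 replicate 1 held the highest treated value of 24 (66.7%), against 33.8% of all tested genes. Both held together for 16 members (44.4%, against 10.5% of all tested genes). These were Adam12, Adam15, Adam19, Adam22, Adamts2, Adamts5, Adamts6, Adamts9, Adamts10, Adamts12, Adamts15, Mmp2, Mmp9, Mmp11, Mmp23 and Timp2. Adamts5, an aggrecan-cutting enzyme, shows the pattern at 13.9, 23.3 and 14.1 in control livers and 23.8, 13.1 and 18.8 in treated livers. This description was chosen after the values were seen, and the members are not independent of each other, so it carries no test. The genes of the matrix that these enzymes cut or process followed the same livers: of 30 tested matrix genes, 24 were highest in control replicate 2 among controls and 24 in anti-PD-1 replicate 1 among treated livers, and both held for 21. The 8 tested myofibroblast markers, which include Acta2 and Col1a1, were all highest in control replicate 2 and 7 of 8 in anti-PD-1 replicate 1. The sum of 9 such markers was 409, 729 and 457 in control livers and 868, 386 and 407 in treated livers. Most of that sum was Col1a1, Col1a2 and Col3a1, which are also among the 30 matrix genes, so the lists are not separate. For hepatic stellate cell markers, of which Dcn is also among the matrix genes, the counts were 4 and 6 of 11. The part of these cells in the members' values was not tested.

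**Figure D4:**
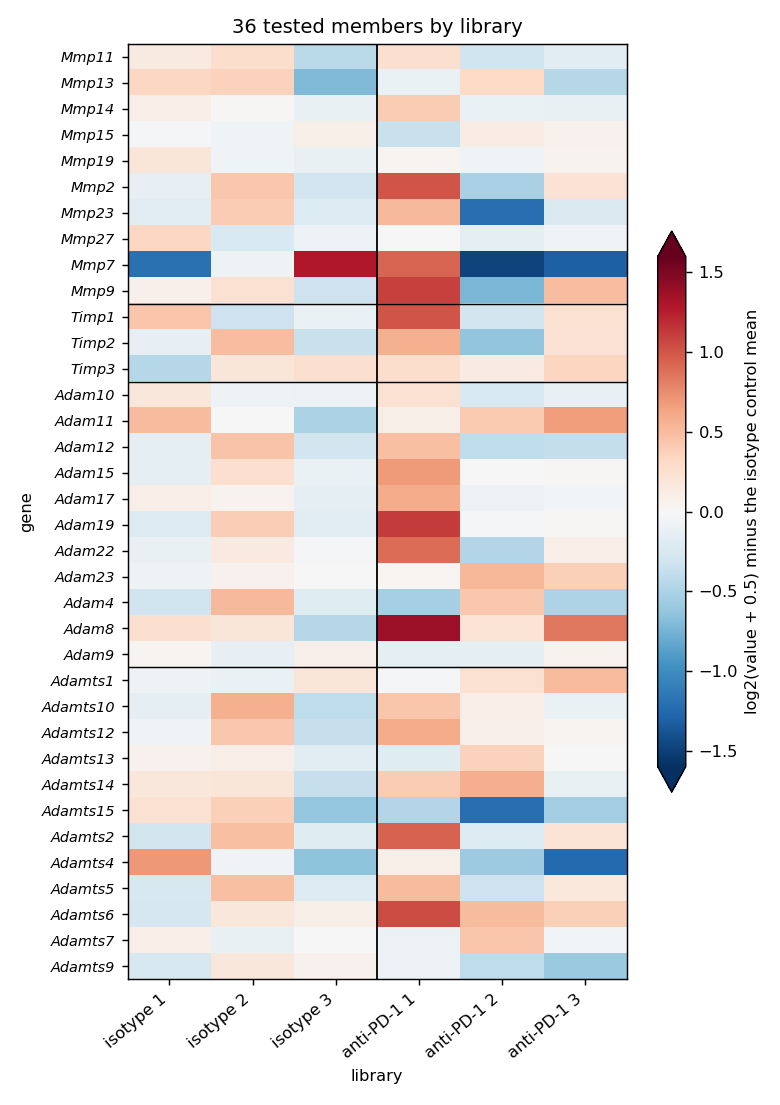
Each of the 36 tested members (rows, by family) in each liver (columns), as log2(normalized count + 0.5) minus the isotype control mean of that gene, red above and blue below. The column of anti-PD-1 replicate 1 is the reddest, with a member median of 0.41, and that of isotype control replicate 2 follows at 0.19.

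**Figure D5:**
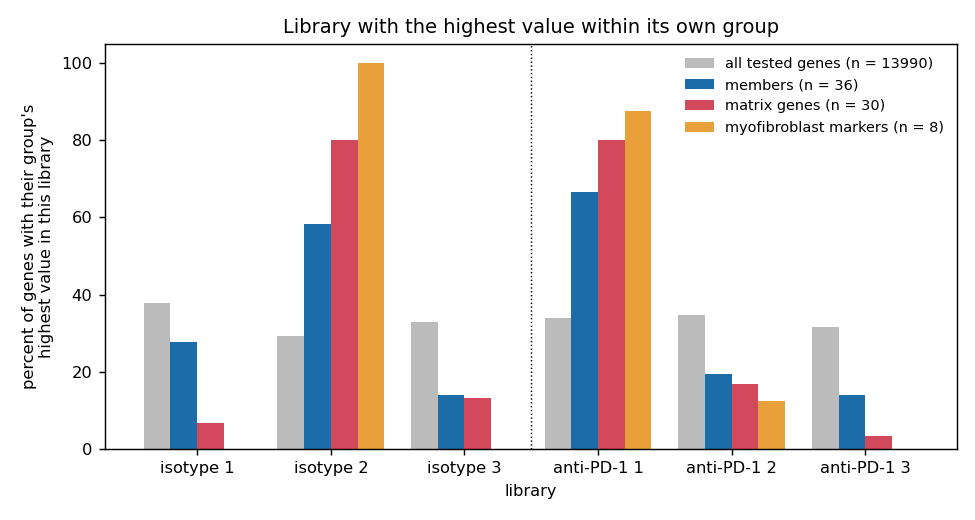
Percent of genes whose highest value within their own group fell in each library, for all 13990 tested genes, the 36 tested members, 30 matrix genes and 8 myofibroblast markers. The members' bars reach 58.3% in isotype control replicate 2 and 66.7% in anti-PD-1 replicate 1.

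The other 16 members fell under the filter and had no test: Adam1a, Adam21, Adam30, Adam33, Adam39, Adamts3, Adamts8, Adamts16, Mmp3, Mmp8, Mmp16, Mmp17, Mmp24, Mmp25, Mmp28 and Timp4. Their values stayed at or below 2.74. Adam39, a testis gene, had 3 reads or fewer in every library. No member entered the test by reaching the filter in 1 group alone.

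Other genes of the same system gave the following counts. Of all tested genes, 5.04% were higher and 6.24% lower at an unadjusted p under 0.05 (limma). Of 10 tested inhibitors and modulators outside the TIMP family, 1 was higher (Spock2, a matrix proteoglycan) and 1 lower (Tfpi2, a Kunitz-type inhibitor of plasmin) at an unadjusted p under 0.05, and 0 passed the adjusted threshold. Tfpi2 was at 53.6, 50.3 and 49.0 in control livers and 44.3, 36.2 and 43.3 in treated livers, without overlap (limma adjusted p = 0.38). Reck was also lower without overlap, at 5.34, 3.84 and 4.27 and at 3.31, 2.80 and 3.78 (limma adjusted p = 0.505). Of all tested genes 17.1% did not overlap. Spock2 was at 2.32, 2.00 and 1.26 and at 5.52, 2.00 and 6.00 (limma adjusted p = 0.408). Of 17 activating proteases and their receptors, 0 were under an unadjusted p of 0.05. With the replicate block 2 were, Ctss (limma adjusted p = 0.207) and Plaur (limma adjusted p = 0.264), both higher, against 7.75% of all tested genes higher. Plaur, the receptor that focuses plasmin generation on the cell surface, came closest at 1.40, 0.87 and 1.26 in control livers and 4.03, 1.66 and 1.76 in treated livers (limma adjusted p = 0.449). Ctss, the cathepsin of antigen-presenting cells, was at 79.7, 45.6 and 41.2 and at 274, 53.3 and 82.5 (limma adjusted p = 0.542), with anti-PD-1 replicate 1 far above the rest. None of 11 partners of ADAM10 and ADAM17 was under an unadjusted p of 0.05. Pacsin3 was at 26.7 ± 3.80 in control livers and 21.3 ± 2.21 in treated livers, and Rhbdf2, the iRhom that carries ADAM17 to the surface of immune cells, at 13.5 ± 1.67 and 16.2 ± 3.12 (SD, n = 3 each). Of 6 ADAMTS-like genes, which lack the protease domain, 0 were under that p, with Papln at 2.21 ± 0.82 and 3.08 ± 0.92 and Adamtsl2 at 14.6 ± 5.47 and 17.9 ± 9.04.

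Genes listed for proteins that ADAM10 and ADAM17 release were more often higher than lower at an unadjusted p under 0.05. The list was chosen with earlier results of these data known, so its share is a description and carries no test. Of 25 tested genes on the list, 6 were higher and 0 lower at that p (24%, against 5.04% of all tested genes higher). Of the 25, 18 were positive, and the median log2 fold change was 0.36, or 0.20 without anti-PD-1 replicate 1. With limma and with edgeR 0 passed after adjustment, and 2, Tnfrsf1b and Egfr, passed with DESeq2, which called 1.87% of all tested genes. Whether ADAM10 or ADAM17 releases the product of each listed gene was not tested. For Egfr, which had the largest log2 fold change of the 25, this assignment is uncertain. The share of 24% and the DESeq2 count therefore rest partly on a gene whose place in the list is open. Tnfrsf1b, the type 2 TNF receptor, was at 43.5, 76.2 and 86.3 in control livers and 123, 131 and 141 in treated livers (log2 fold change 0.99 ± 0.23, limma adjusted p = 0.253, DESeq2 adjusted p = 0.00957). Tnfrsf1a, the type 1 receptor, was at 52.4, 50.8 and 59.3 and at 69.5, 66.2 and 74.4 (limma adjusted p = 0.279). For both receptors all 3 treated livers were above all 3 controls, with little difference among the treated livers. In the list, 3 of 25 genes did not overlap, these receptors and Mertk, all of them higher. Of all tested genes 17.1% did not overlap (7.13% higher). The other 4 of the 6 genes higher at an unadjusted p under 0.05 were the growth factor receptor gene Egfr, the phagocyte receptor gene Mertk and the syndecan genes Sdc1 and Sdc4. Egfr was at 895, 731 and 405 in control livers and 813, 1854 and 2389 in treated livers, so its groups overlapped (limma adjusted p = 0.355). Of 30 tested matrix genes, 1 was higher and 0 lower at an unadjusted p under 0.05. With the replicate block 0 were. The gene was Col14a1, a fibril-associated collagen, at 160, 177 and 156 in control livers and 211, 175 and 207 in treated livers (limma adjusted p = 0.434). Col5a1 was at 27.8 ± 4.86 and 33.1 ± 3.00 (SD, n = 3 each). The median of the matrix list was 0.16, and -0.04 without anti-PD-1 replicate 1.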

How the data were processed

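RNA of 6 livers was sequenced after ribosomal RNA depletion with a directional kit, per the labels' protocols. Trimmomatic 0.38, Bowtie2, RSEM 1.3.0, edgeR and the GRCm39 build appear in the submitters' processing notes, with no role or order. The authors deposited 1 normalized signal per gene and library. All values (100%) were whole multiples of 1 read within 0.001 read, so reads were recovered, and trimmed-mean (TMM) factors recomputed from them matched the deposited scaling. Whether reads were observed or rounded estimates cannot be seen. Symbols matched 21407 of 21512 identifiers in a gene name table. limma tests covered genes that reached 1 unit in 3 or more libraries (limma 3.58.1, R 4.3.3, intensity trend, log2(value + 0.5), two-sided, Benjamini-Hochberg). This scale understates changes of low genes. edgeR 4.0.16 (quasi-likelihood, the deposited scaling) and DESeq2 1.42.0 ran on recovered reads as alternatives, beside other pseudocounts, filters and scalings, a fit without trend, a replicate block and leaving out each library. The limma, replicate block, edgeR and DESeq2 tests were tried on simulated counts. These were drawn independently for each gene with the same dispersion for all genes and no outlying library. The trial therefore does not show how the tests behave when a library shifts many genes together. A permutation of 3 against 3 cannot go below an exact p of 0.1. The labels give both groups replicate numbers 1 to 3, for different mice. The correlation of same-numbered livers' deviations from their group mean was 0.149, 0.135 and 0.251, and -0.219 to 0.063 for livers with unlike numbers. The rule used took this as pairing, from the values alone. With 3 livers per group these correlations are tied to each other, so they do not establish that the mice were paired. The replicate block is therefore an alternative fit only. Members, gene lists and naming rules were chosen with earlier results of these data known. Named in full were members at an unadjusted p under 0.05, 16 members listed beforehand by role, and 2 genes per pathway list. Other values named were chosen after being seen. Shared exon bases were checked on GENCODE vM21, and promoters are RefSeq's.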

Additional observations from a re-analysis of the deposited data

How the results depend on the processing

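The count of members past the adjusted threshold was 0 in the 17 alternatives run. The count at an unadjusted p under 0.05, 2 as reported, was 0 with a filter of 5 units (20 members tested), 4 with the replicate block and 1 with total-count scaling (Adam23, with Adam8 and Adamts6 no longer under it), and ranged from 1 to 3 when each library was left out. Without anti-PD-1 replicate 1 the 3 members were Adam23, Adamts1 and Adamts9. The count of members whose groups did not overlap, 1 as reported, was 2 with total-count scaling, 2 with no filter and 0 with the filter of 5 units, and 3 to 8 when a library was left out, where fewer samples make separation easier. The members' median log2 fold change ranged from -0.04 to 0.17 when a library was left out. The family medians moved by less than the spread between livers in every alternative, but that spread was wide beside the medians. When a library was left out, they ranged from -0.12 to 0.087 for Mmp and -0.029 to 0.40 for Timp genes. For Adam genes the range was -0.032 to 0.28 and for Adamts genes 0.030 to 0.27. The Mmp, Timp and Adam medians therefore changed direction. In the pathway lists, the replicate block added Ctss, Plaur, Axl and Btc at an unadjusted p under 0.05 and took out Col14a1 and Sdc1. Of the cell type markers it put Cd163 past the adjusted threshold. It left 0 members past the adjusted threshold. The direction of Mmp19 turned with quantile normalization (-0.028) and total-count scaling (-0.0085). When a library was left out, the log2 fold change ranged from -0.18 to 0.058 for Adam10, -0.40 to 0.13 for Adam12, -0.065 to 0.28 for Adam17, -0.088 to 0.19 for Adamts13, -0.44 to 0.10 for Mmp13, -0.12 to 0.15 for Mmp14, -0.050 to 0.11 for Mmp19, -0.14 to 0.62 for Mmp2, -0.12 to 0.79 for Mmp9, -0.029 to 0.62 for Timp1 and -0.20 to 0.40 for Timp2, so leaving out 1 library turned each direction. Adam8 (0.53 to 1.10), Adamts6 (0.44 to 0.78) and Adamts1 (0.11 to 0.37) stayed positive, while Adamts2 (0.0019 to 0.58) and Timp3 (0.026 to 0.38) came close to 0. Which property of these libraries moved the values was not tested. Members under about 1 unit rest on few reads, which limits what could be detected for Mmp3, Mmp8, Mmp9, Mmp13 and Timp1.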

Other observations

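The remaining marker lists give the makeup of the 6 livers. Endothelial markers were the most even, their sum of 9 genes lying between 481 and 505 in controls and between 462 and 500 after anti-PD-1. The sum of 11 hepatic stellate cell markers was 625 to 679 in controls and 682 to 756 after anti-PD-1. Most of that sum was Dcn and Reln, whose groups each overlapped. Dcn was at 195, 210 and 170 in control livers and 289, 169 and 253 in treated livers. Reln was at 219, 210 and 207 and at 213, 265 and 247. Of the 11 genes, 4 had negative log2 fold changes and 0 were under an unadjusted p of 0.05. Kupffer cell markers, those of resident liver macrophages, had 5 of 9 genes lower at that p, against 6.24% of all tested genes lower: Cd163, Clec4f, Marco, Timd4 and Vsig4. The list was not uniform: 3 of 9 genes had positive log2 fold changes, Adgre1 (0.42), C6 (0.08) and Folr2 (0.04), and Cd5l was at -0.02. With the replicate block Adgre1 was higher at an unadjusted limma p of 0.034. The sum of the 9 markers overlapped, at 341 to 622 in controls and 401 to 444 after anti-PD-1. Of these markers 0 passed the adjusted threshold (limma, smallest adjusted p = 0.129), while 3 did with DESeq2 and 1, Cd163, with the replicate block (limma adjusted p = 0.0298). The lipid-associated macrophage sum was 215 to 340 in controls and 159 to 289 after anti-PD-1, the B and plasma cell sum 4.93 to 13.7 and 5.19 to 24.8, and the hepatocyte sum 73427 to 96070 and 70928 to 86939.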
